A study of Mus musculus with 8 samples.

Results

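The 10 genes described here mark monocytes and macrophages: Csf1r, Spi1, Lyz2, Ctss, Cd14, Cx3cr1, Ccr2, Mrc1, C1qa and C1qb. They were taken as all probe sets whose single platform gene symbol is one of these names, which gave 18 probe sets of 45037, and 10 genes of the 18193 measured by the array. Expression was measured in amplified total RNA on 1-colour Affymetrix arrays in cells sorted from mouse bone marrow as Sca1+Lin-, that is, bearing the surface protein Sca1 and lacking lineage markers. The 5 Sca1-MALT1 samples carried the genotype of that name and the 3 WT samples were wild type. The labels give no age, sex, strain, treatment or time for either group, and no antibodies for the lineage gate. By its name, the genotype places MALT1, a signalling protein of the NF-kB pathway with protease activity, under the Sca1 promoter. The Sca1 promoter is active in stem and progenitor cells and also in some mature blood and endothelial cells. The labels do not say whether each array stands for a separate animal. The p-values therefore speak only of the spread among these arrays, part of which may be technical. Xist, read as a mark of sex, passed a log2 signal of 9 on some arrays of the same genotype and not on others. Sex may thus differ among them. The gene of Sca1 itself was not analysed here.

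Monocytes arise in the bone marrow from myeloid progenitors under the transcription factor PU.1, encoded by Spi1, and the growth factor receptor encoded by Csf1r. They leave the marrow through chemokine receptors such as the product of Ccr2, and in tissues some become macrophages, which take up dying cells, digest them in lysosomes and secrete complement proteins. Mature monocytes carry CD11b, a usual target of lineage depletion, so a Lin- sort normally removes them. Of their progenitors, the Sca1+ gate keeps only those that bear Sca1. In such bulk RNA, fewer cells of a type and less RNA per cell cannot be told apart.

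None of the 10 genes passed the test in Sca1-MALT1 against WT. Of all genes, 16 of 18193 passed, or 0.0879% (limma, Benjamini-Hochberg adjusted p under 0.05 over all genes), 0.044% of all genes higher and 0.044% lower. At an unadjusted p under 0.05 there was 1 of the 10, Csf1r, on the lower side, where the share over all genes was 10.2% in both directions and 4.49% lower. In each of the 10 genes the groups overlapped, and in 7.13% of all genes they did not. The log2 difference, Sca1-MALT1 minus WT, was below 0 in 8 of the 10 genes with a median of -0.52, beside 49.3% of all genes below 0 and a median of 0.004 over all genes. None of the 18 probe sets passed when all 45037 were tested, where 0.06% passed, and 2 had an unadjusted p under 0.05, where 9.47% did.

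These genes varied widely among arrays of the same genotype. The SD within groups was 0.72 to 1.15 log2 units in 9 genes and 0.37 in Ctss, against a median of 0.24 over all genes. Those values stood at the 73.5th percentile of all genes for Ctss and between the 93.3rd for C1qa and the 98.5th for Csf1r. In the mean over the 10 genes, Sca1-MALT1 replicate 4 read 10.15 and replicate 2 read 8.43, against 9.13 to 10.11 in the WT arrays, so the highest and the lowest array were both Sca1-MALT1.

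**Figure D1:**
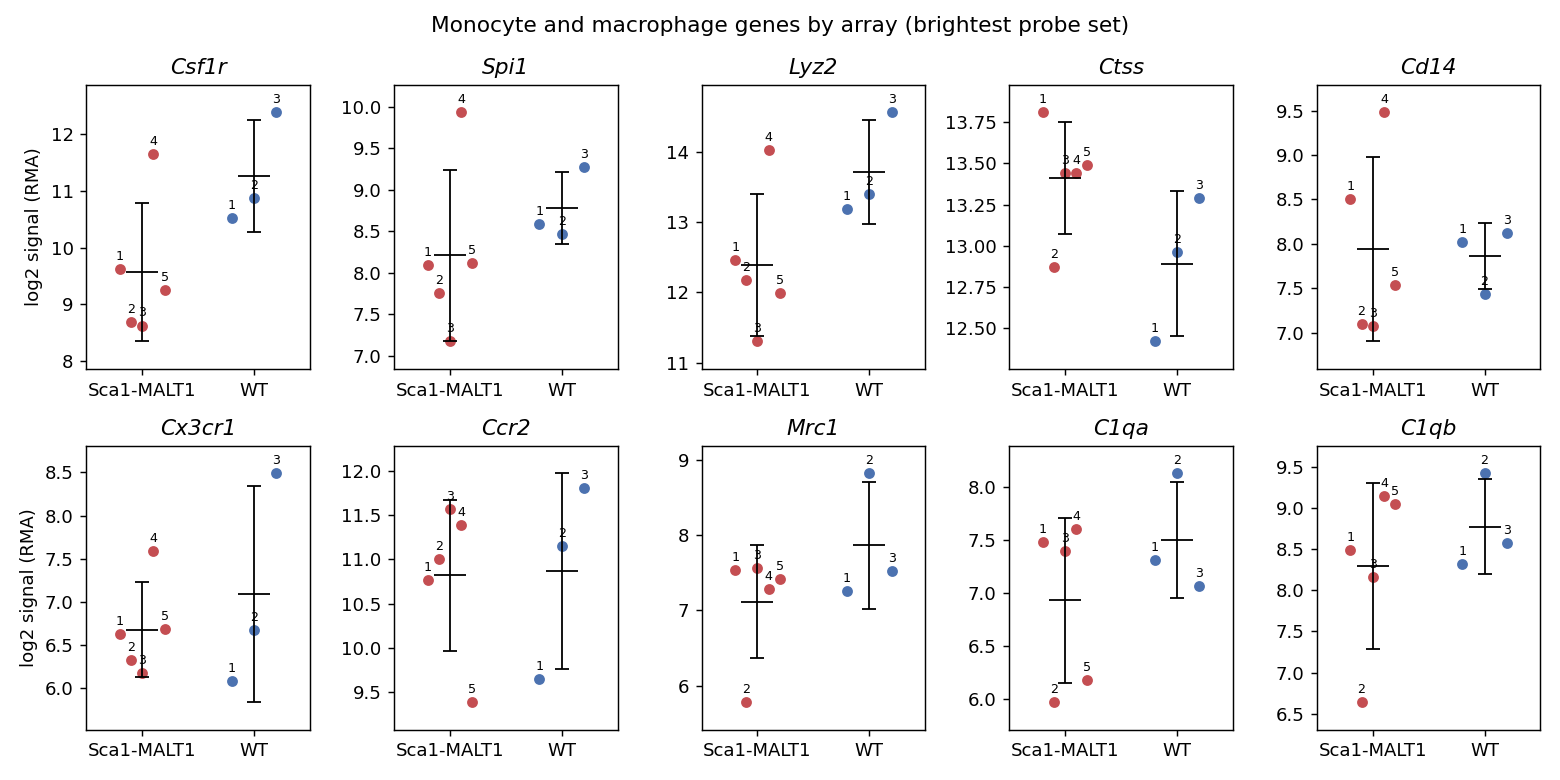
Log2 RMA signal of the brightest probe set of each gene, with 1 point per array labelled by replicate number, for 5 Sca1-MALT1 arrays (left, red) and 3 WT arrays (right, blue); black bars are mean ± SD. Sca1-MALT1 replicate 4 lies above the other four Sca1-MALT1 arrays for Csf1r, Spi1, Lyz2, Cd14 and Cx3cr1, and replicate 2 lies lowest for Mrc1, C1qa and C1qb. Each panel has its own vertical scale.

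The start regions of a few genes are shown because PU.1 is itself one of the 10 products. The RefSeq promoter table (GRCm38.p6, 250 bases before to 50 after the annotated start) was used for 6 of the 10 genes, and the rest are not shown here. Shorter forms of the site of PU.1 were not searched. The letters GAGGAA, a form of that site, or TTCCTC on the other strand, occurred in 3 of the 6. They were in 28.3% of the 32851 promoters of the same length. They occurred 3 times in Mrc1, 2 times in Ctss and 1 time in C1qb, and not in Lyz2, Cx3cr1 or Ccr2. The letters TTGCNNAA, a form of the site of C/EBP factors, or TTNNGCAA on the other strand, were in 0 of the 6 and in 10.8% of all. A match of these letters is not a measured site, and its absence from this window says nothing of the factor. GAGGAA and TTCCTC are in capitals in the sequences below, printed 5′ to 3′. These are the promoters of Mrc1 and C1qb, whose signals were close to one another over the arrays, and of Lyz2, whose signal ran differently. They lie at chr2:14229164-14229463 on the plus strand (Mrc1), chr4:136886151-136886450 on the minus strand (C1qb) and chr10:117282223-117282522 on the minus strand (Lyz2).
Mrc1: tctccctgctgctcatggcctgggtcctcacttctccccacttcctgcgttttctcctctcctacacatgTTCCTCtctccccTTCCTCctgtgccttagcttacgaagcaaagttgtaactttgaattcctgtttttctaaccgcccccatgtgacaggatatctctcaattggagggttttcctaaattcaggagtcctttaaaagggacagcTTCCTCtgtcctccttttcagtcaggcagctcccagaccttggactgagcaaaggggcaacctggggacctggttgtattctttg
C1qb: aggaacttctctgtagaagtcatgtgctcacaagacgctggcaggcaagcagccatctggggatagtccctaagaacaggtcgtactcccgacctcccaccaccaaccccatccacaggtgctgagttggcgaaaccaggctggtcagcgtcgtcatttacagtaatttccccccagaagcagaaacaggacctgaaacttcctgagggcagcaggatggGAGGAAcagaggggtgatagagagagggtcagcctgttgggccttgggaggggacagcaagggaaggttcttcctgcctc
Lyz2: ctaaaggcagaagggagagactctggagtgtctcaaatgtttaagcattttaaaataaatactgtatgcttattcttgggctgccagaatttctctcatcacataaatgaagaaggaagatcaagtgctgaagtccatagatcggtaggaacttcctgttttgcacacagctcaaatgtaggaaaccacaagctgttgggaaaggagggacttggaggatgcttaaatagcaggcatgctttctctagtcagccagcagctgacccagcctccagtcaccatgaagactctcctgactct

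Csf1r, the receptor for the growth factors CSF1 and IL-34 on which monocytes and macrophages depend, read lower in most Sca1-MALT1 arrays without passing the test. On the brightest of its 3 probe sets it read 9.62, 8.70, 8.63, 11.64 and 9.26 in Sca1-MALT1 replicates 1 to 5, against 10.52, 10.88 and 12.38 in WT replicates 1 to 3. Of the 5 Sca1-MALT1 arrays, 4 lay below all WT arrays, and replicate 4 lay above 2 of them. The mean was 9.57 ± 1.22 in Sca1-MALT1 (SD, n = 5) and 11.26 ± 0.99 in WT (n = 3), a log2 difference of -1.69 (SE 0.72, 95% interval -3.33 to -0.05). That is 0.311 of the WT level, with a limma adjusted p of 0.478 and an exact two-sided permutation p of 0.107. The other probe sets of Csf1r differed by -0.79 and -0.19, so the sign was shared and the size was not. Without Sca1-MALT1 replicate 4 the difference was -2.20 (limma adjusted p = 0.15), and without WT replicate 3 it was -1.13 (adjusted p = 0.677).

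Spi1, whose product PU.1 switches on the myeloid programme and Csf1r itself, had a smaller difference. It read 8.09, 7.75, 7.17, 9.93 and 8.12 in Sca1-MALT1 replicates 1 to 5, against 8.58, 8.47 and 9.27 in WT replicates 1 to 3. In all, 4 Sca1-MALT1 arrays lay below all WT arrays and replicate 4 above all of them. The log2 difference was -0.56 (SE 0.55, 95% interval -1.82 to 0.70, limma adjusted p = 0.781), -0.99 without replicate 4 (adjusted p = 0.246), -0.30 without replicate 3 and -0.32 without WT replicate 3 (adjusted p = 0.913).

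Lyz2, the lysozyme of monocytes, macrophages and neutrophils, ran with Csf1r. Its log2 signal was 12.46, 12.17, 11.30, 14.03 and 11.99 in Sca1-MALT1 replicates 1 to 5, against 13.18, 13.40 and 14.56 in WT replicates 1 to 3. Again 4 of the 5 Sca1-MALT1 arrays were below all WT arrays, and replicate 4 was not. Sca1-MALT1 minus WT gave a log2 difference of -1.33 (SE 0.58, 95% interval -2.66 to 0.01, limma adjusted p = 0.493, exact permutation p = 0.107), or 0.399 of the WT level. Without Sca1-MALT1 replicate 4 it was -1.74 (adjusted p = 0.176), and without WT replicate 3 it was -0.90 (adjusted p = 0.691). Lyz1, the neighbouring lysozyme gene of Paneth and myeloid cells, differed by -0.69 (SE 0.30, adjusted p = 0.483). The 2 genes are close copies of one another, so their probe sets may share signal.

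Ctss, the lysosomal cathepsin S that trims the invariant chain off MHC class II, read higher in most Sca1-MALT1 arrays but did not pass the test. It read 13.81, 12.87, 13.44, 13.44 and 13.49 in Sca1-MALT1 replicates 1 to 5, against 12.42, 12.96 and 13.29 in WT replicates 1 to 3. Of the 5 Sca1-MALT1 arrays, 4 lay above all WT arrays, and replicate 2 lay within the WT range. The log2 difference was 0.52 (SE 0.25, 95% interval -0.04 to 1.09, limma adjusted p = 0.519, exact permutation p = 0.107), and 0.29 without WT replicate 1 (adjusted p = 0.825). Cd74, the invariant chain, differed by 0.82 (SE 0.26, adjusted p = 0.36), and Cst3, the cathepsin inhibitor cystatin C, by 0.33 (SE 0.33, adjusted p = 0.785). B cells and dendritic cells also express Ctss and Cd74, and a Lin- sort normally removes B cells. The mean of 9 B cell markers was 7.96 to 9.22 in Sca1-MALT1 against 10.06 to 10.68 in WT, and that of 10 dendritic cell markers was 7.43 to 7.72 against 7.56 to 7.87. Singly, the dendritic cell markers differed in both directions, 5 above 0 and 5 below, between -1.59 and 1.74. The lowest, Flt3, also stood in the stem and progenitor list, and the highest, Irf4, in the plasma cell list. Of the B cell markers, 3 of 9 did not overlap, where 7.13% of all genes did not. The median difference was -1.05, and the differences ranged from -0.23 in Blnk to -5.55 in Vpreb1. Vpreb1 and Igll1 (-3.92), which encode parts of the pre-B cell receptor, were the largest. They were the 2 of the 9 that passed the test (limma adjusted p = 0.00596 and 0.00228), where 0.044% of all genes passed on the lower side. The part of these cells in the Ctss signal was not tested.

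Cd14, the surface co-receptor that hands lipopolysaccharide to TLR4, showed no common direction. It read 8.50, 7.10, 7.07, 9.48 and 7.54 in Sca1-MALT1 replicates 1 to 5, against 8.02, 7.43 and 8.12 in WT replicates 1 to 3. The Sca1-MALT1 arrays lay on either side of the WT range, 2 above it and 2 below it. Sca1-MALT1 minus WT gave a log2 difference of 0.08 (SE 0.55, 95% interval -1.17 to 1.33, limma adjusted p = 0.979). Tlr4 itself differed by -0.10 (SE 0.40) and Ly96, its partner MD-2, by -0.12 (SE 0.32).

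The chemokine receptors Cx3cr1 and Ccr2 mark patrolling and classical monocytes. Cx3cr1, the fractalkine receptor, read 6.63, 6.33, 6.18, 7.59 and 6.69 in Sca1-MALT1 replicates 1 to 5, against 6.09, 6.68 and 8.49 in WT replicates 1 to 3. Its highest and its lowest array were both WT. The log2 difference was -0.41 (SE 0.53, 95% interval -1.62 to 0.81, limma adjusted p = 0.841), and it became 0.29 without WT replicate 3. The dimmer probe set read 5.11 to 5.54 in Sca1-MALT1 against 4.86 to 5.16 in WT, below the array medians of 6.40 to 6.48, and differed by 0.35 (adjusted p = 0.516 over all probe sets).

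Ccr2, the receptor for CCL2 through which classical monocytes leave the marrow, read 10.77, 11.01, 11.57, 11.39 and 9.38 in Sca1-MALT1 replicates 1 to 5, against 9.64, 11.15 and 11.81 in WT replicates 1 to 3. A single array in each group was low, Sca1-MALT1 replicate 5 and WT replicate 1. In Sca1-MALT1 replicate 5 the 3' minus 5' signal of the Gapdh and beta-actin controls was also the highest of the 8 arrays, at 3.20 and 2.49, and its part in the Ccr2 value was not tested. Sca1-MALT1 minus WT gave a log2 difference of -0.04 (SE 0.60, 95% interval -1.40 to 1.32, limma adjusted p = 0.99). The other probe sets differed by 0.60, 0.24 and 0.25, so the sign of Ccr2 depended on the probe set. The ligand genes Cx3cl1 (-0.03, SE 0.13), Ccl2 (0.00, SE 0.10), Ccl7 (0.18, SE 0.11) and Ccl12 (0.06, SE 0.12) spanned at most 0.40 log2 units within the Sca1-MALT1 group. Cx3cl1 read near the array medians and the other ligand genes below them, so their signal over background could not be judged.

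**Figure D2:**
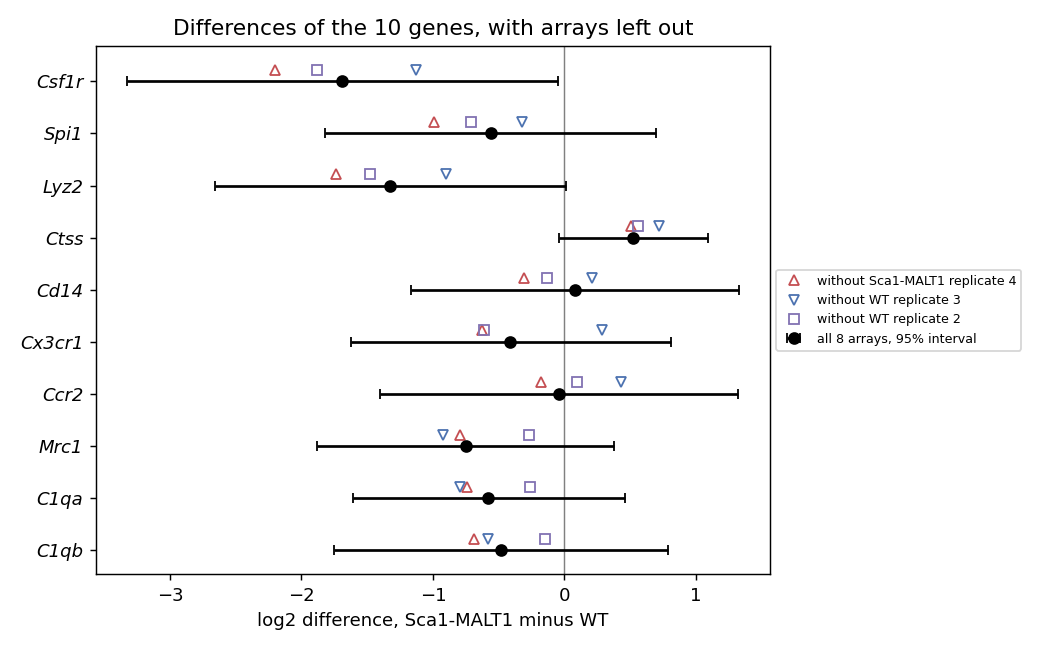
Log2 difference, Sca1-MALT1 minus WT, of each gene over all 8 arrays (black, with the 95% interval of the limma fit), and with Sca1-MALT1 replicate 4, WT replicate 3 or WT replicate 2 left out (open marks). The interval of Csf1r, -3.33 to -0.05, is the only one of the 10 that does not include 0, before adjustment over all genes. Leaving out Sca1-MALT1 replicate 4 and leaving out WT replicate 3 move Csf1r, Spi1, Lyz2 and Cd14 in opposite directions.

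The macrophage genes Mrc1, C1qa and C1qb were all lowest in Sca1-MALT1 replicate 2 and highest in WT replicate 2. They differed in their order over the other arrays. Mrc1, the mannose receptor CD206 of tissue macrophages and sinusoidal endothelium, read 7.53, 5.78, 7.56, 7.28 and 7.41 in Sca1-MALT1 replicates 1 to 5, against 7.25, 8.82 and 7.52 in WT replicates 1 to 3. All 5 Sca1-MALT1 arrays were below the WT mean of 7.86 ± 0.84 (SD, n = 3), but 4 of them were within the WT range. The log2 difference was -0.75 (SE 0.49, 95% interval -1.88 to 0.38, limma adjusted p = 0.659), -0.42 without Sca1-MALT1 replicate 2 and -0.27 without WT replicate 2.

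C1qa and C1qb encode chains of C1q, the starter of the classical complement pathway, which is made by macrophages. C1qa read 7.48, 5.97, 7.40, 7.60 and 6.18 in Sca1-MALT1 replicates 1 to 5, against 7.31, 8.13 and 7.07 in WT replicates 1 to 3. C1qb read 8.49, 6.64, 8.16, 9.14 and 9.04 in Sca1-MALT1 replicates 1 to 5, against 8.32, 9.42 and 8.57 in WT replicates 1 to 3 (on a probe set whose suffix, x, marks possible cross-hybridisation). Both genes were lowest in Sca1-MALT1 replicate 2 and highest in WT replicate 2. The log2 differences were -0.58 for C1qa (SE 0.45, 95% interval -1.61 to 0.46, limma adjusted p = 0.723) and -0.48 for C1qb (SE 0.56, 95% interval -1.75 to 0.79, adjusted p = 0.819). The other probe sets of C1qb differed by -0.15 and -0.32. C1qc, the gene of the remaining chain, read 5.89 in Sca1-MALT1 replicate 2 and 8.23 in WT replicate 2, and differed by -0.35 (SE 0.46, adjusted p = 0.843). Without WT replicate 2 the differences were -0.26 for C1qa and -0.15 for C1qb, and without Sca1-MALT1 replicate 2 they were -0.34 and -0.06.

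Likeness between profiles was measured as the root mean square gap over the 8 arrays after each gene was centred on its own mean. Among the 10 genes the smallest gap was 0.35 log2 units, between Csf1r and Lyz2, followed by 0.42 between Mrc1 and C1qb, 0.44 between Spi1 and Lyz2, and 0.47 between Spi1 and Cd14. The gap was 1.22 between Csf1r and Mrc1 and 1.12 between Lyz2 and Mrc1. Other pairs lay between, such as Cd14 and Lyz2 at 0.81, Cd14 and C1qa at 0.81, and Spi1 and C1qb at 0.82, so the 10 genes did not fall into separate sets by this measure. The widest was 1.39, between Csf1r and Ctss. The arrays share a normalization, and genes measured on the same arrays are not independent.

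Of all genes, those nearest to Csf1r were Gsn, which encodes the actin-severing protein gelsolin, Crispld2, a secreted protein, and Tyrobp, the signalling adaptor DAP12, at gaps of 0.32 to 0.35. Spi1 was nearest to Tlr2, a receptor for bacterial lipoproteins, Ccl9, a chemokine, and Alox5ap, a protein of leukotriene synthesis, at 0.16 to 0.19. Lyz2 was nearest to Pgd, an enzyme of the pentose phosphate pathway, Mgst1, a glutathione transferase, and Cd300a, an inhibitory receptor, at 0.21 to 0.27. Nearest to Cd14 were Il1f9, Kcnk6 and Cebpa, at 0.31 to 0.32. Cx3cr1 had Sowahc, Sqor and Adpgk at 0.19 to 0.22, and Ccr2 had Slfn2, Tnfsf14 and Pbld1 at 0.30 to 0.37.

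Mrc1 was nearest to Ptprb, a phosphatase of vascular endothelium, at 0.26, then to C1qc at 0.30 and Abcc9, a potassium channel subunit of pericytes, at 0.33. C1qb was nearest to C1qc at 0.31, to Fcna, a ficolin of macrophages, at 0.37 and to Tubb1, a tubulin of platelets, at 0.39. C1qa had wider gaps, 0.38 to Ly86, 0.38 to Urod and 0.40 to Nrcam. Ctss spanned 1.39 log2 units over the arrays, under the 2 units needed to be matched.

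Neutrophil markers moved over the arrays with Csf1r, Lyz2 and Spi1. The mean of the 11 measured markers, of 14 listed, was 11.76, 11.35, 10.20, 13.27 and 10.43 in Sca1-MALT1 replicates 1 to 5, against 11.91, 11.93 and 13.46 in WT replicates 1 to 3. All 11 differed below 0, between -1.48 and -0.61, with a median of -0.95, and none passed the test. Itgam, which encodes CD11b, read 8.71 in Sca1-MALT1 replicate 4 and 8.60 in WT replicate 3, and 4.28 to 5.55 in the other six arrays. Adgre1, a surface antigen of mouse macrophages, read 8.63 and 8.78 in the same 2 arrays and 6.53 to 8.07 in the others. The part of neutrophils or CD11b-positive cells in the Csf1r, Lyz2 and Spi1 differences was not tested. With Sca1-MALT1 replicate 4 left out these differences were larger, and with WT replicate 3 left out they were smaller.

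The mean of endothelial markers was highest in WT replicate 2, the array that was also highest for Mrc1, C1qa and C1qb. Singly, most were highest there and the others in Sca1-MALT1 replicate 5. The mean of 10 such markers, a list added after the data were seen, was 6.55 to 7.14 in Sca1-MALT1, against 7.43, 8.33 and 7.36 in WT replicates 1 to 3. Of the 10, 9 differed below 0, with a median of -0.86, and none passed the test. At an unadjusted limma p under 0.05, 7 were lower, where 4.49% of all genes were. In 5 the groups did not overlap, where in 7.13% of all genes they did not. Sca1-MALT1 replicate 2, lowest for Mrc1 and C1q genes, read 6.76 in this list, within the range of the other Sca1-MALT1 arrays. Stab1, a scavenger receptor of macrophages and sinusoidal endothelium, read 5.59 to 6.53 in Sca1-MALT1 and 6.75 to 7.91 in WT without overlap (log2 difference -1.05, SE 0.30, limma adjusted p = 0.316). The part of endothelial cells in the Mrc1 signal was not tested.

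**Figure D3:**
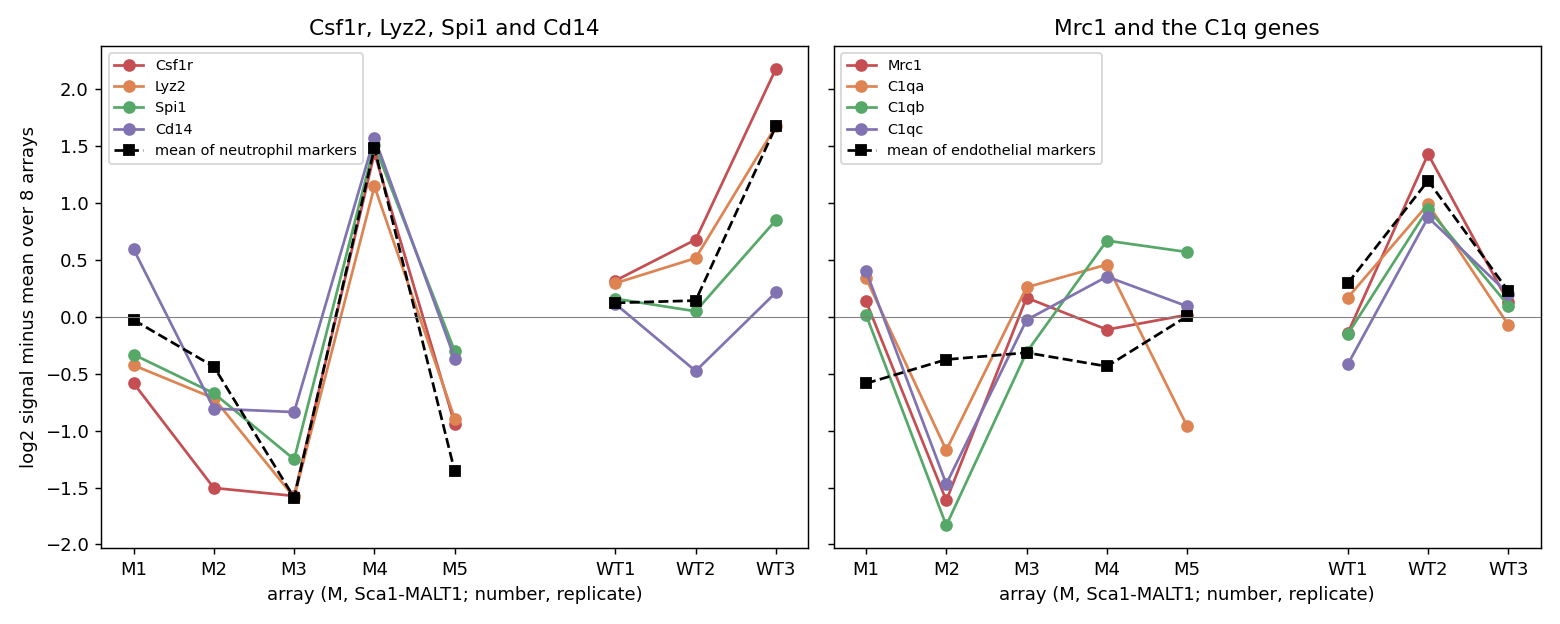
Log2 signal of each gene minus its mean over the 8 arrays, for Sca1-MALT1 replicates 1 to 5 (M1 to M5, left) and WT replicates 1 to 3 (right of the gap); dashed lines are the mean of the neutrophil markers (left panel) and of the endothelial markers (right panel). Csf1r, Lyz2, Spi1 and the neutrophil mean peak in Sca1-MALT1 replicate 4 and WT replicate 3, while Mrc1, C1qa, C1qb and C1qc are lowest in Sca1-MALT1 replicate 2 and highest in WT replicate 2.

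Stem and progenitor markers also differed among arrays of 1 genotype. The mean of 10 such markers was 8.09, 10.22, 8.71, 8.47 and 10.39 in Sca1-MALT1 replicates 1 to 5, against 10.82, 10.23 and 9.36 in WT replicates 1 to 3. It was lowest in Sca1-MALT1 replicate 1 and next lowest in replicate 4, the Sca1-MALT1 array highest for Csf1r. The part of progenitors in the Csf1r values was not tested. The mean of 9 plasma cell markers did not overlap between genotypes, at 11.18 to 12.94 in Sca1-MALT1 against 9.32 to 9.44 in WT. All 9 were higher at an unadjusted limma p under 0.05, where 10.2% of all genes had such a p in either direction. By adjusted p 1 of the 9 passed, where 0.044% of all genes passed on the higher side. Singly, 7 of the 9 did not overlap, where 7.13% of all genes did not. The means of 6 erythroid markers did not overlap either, at 8.94 to 9.62 against 8.04 to 8.41. Singly, 2 of the 6 did not overlap, and 0 passed the limma test. The means of 9 T and NK cell markers overlapped, at 9.20 to 11.05 against 9.65 to 10.04. The 3' minus 5' signal of the Gapdh control, a measure of RNA quality, was 2.25 to 3.20 in Sca1-MALT1 and 2.70 to 2.92 in WT, and that of beta-actin was 1.25 to 2.49 in Sca1-MALT1 and 1.45 to 2.14 in WT. Sca1-MALT1 replicate 4 was lowest and replicate 5 highest on both controls. The part of RNA quality in these results was not tested.

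Further genes of the lineage were read in 10 lists ordered by role. Of 143 genes listed, 131 were measured and 0 passed the limma test, while 16, or 12.2%, had an unadjusted p under 0.05, where 10.2% of all genes did. The groups did not overlap in 1 of 6 growth factor genes, 1 of 14 Toll-like receptor genes and 2 of 26 macrophage genes. The same held for 1 of 19 lysosomal genes and, of 15 transcription factors, for 1 higher and 1 lower. It held for 0 genes of the other lists, and for 7.13% of all genes. The growth factor and receptor list had 6 genes with a median of -0.66, 4 below 0. Flt3, a receptor of early progenitors, differed by -1.59 (SE 0.53, adjusted p = 0.377) and Csf3r, the G-CSF receptor, by -1.27 (SE 0.70). Csf1, the main ligand of Csf1r, read 8.11 to 8.84 in Sca1-MALT1 and 7.50 to 8.10 in WT without overlap, a log2 difference of 0.50 (SE 0.21, adjusted p = 0.457). Il34, the other ligand, differed by 0.02 (SE 0.12) at signals below the array medians.

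Among 15 myeloid transcription factors the median was -0.11, with 9 below 0. Zeb2, a repressor needed for monocyte and dendritic fates, read 7.89, 7.57, 7.31, 8.93 and 4.77 in Sca1-MALT1 replicates 1 to 5, against 9.36, 9.11 and 9.69 in WT replicates 1 to 3. The groups did not overlap, and replicate 5, the array with the highest 3' minus 5' control signals, was far below the rest (log2 difference -2.09, SE 0.79, limma adjusted p = 0.415). Irf8, which directs progenitors to monocytes, differed by -0.38 (SE 0.35) and Cebpa, which opens the granulocyte and monocyte path, by -0.32 (SE 0.47). Egr1 and Egr2, immediate early factors, differed by 1.02 (SE 0.38) and 0.46 (SE 0.18), neither past the threshold.

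Of the 9 chemokine and chemokine receptor genes, 6 differed below 0 (median -0.53), among them Ccl3 (-0.73, SE 0.24), Ccl4 (-0.53, SE 0.25) and Ccl6 (-1.37, SE 0.73), which encode inflammatory chemokines. The 14 genes of Toll-like receptors, their co-receptors and adaptors had a median of -0.11. Tlr7, an endosomal receptor for single-stranded RNA, read 6.56 to 7.42 in Sca1-MALT1 and 7.55 to 8.10 in WT without overlap (-0.77, SE 0.22, limma adjusted p = 0.322). Tlr9, a receptor for DNA, differed by -0.21 (SE 0.11) and Tlr8 by 0.35 (SE 0.20).

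The 16 classical monocyte genes had a median of -0.37, with 11 below 0 and none at an unadjusted p under 0.05. Ms4a6b differed by 0.72 (SE 0.37), Plac8 by -0.68 (SE 0.47) and Mpeg1, a pore-forming protein of phagocytes, by -0.66 (SE 0.49). The mean of this list was 9.51 to 11.92 in Sca1-MALT1 and 9.91 to 11.16 in WT, and was again highest in Sca1-MALT1 replicate 4. The 8 non-classical monocyte genes had a median of 0.13, with Eno3 at 0.36 (SE 0.14), Apoc2, an apolipoprotein, at 0.83 (SE 0.39) and the integrin gene Itgal at 0.46 (SE 0.24).

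The 26 macrophage receptor and phagocytosis genes had a median of -0.21, with 17 below 0. Mfge8, which bridges dying cells to phagocytes, read 9.37 to 9.85 in Sca1-MALT1 and 10.03 to 10.43 in WT without overlap (-0.59, SE 0.15, limma adjusted p = 0.277). Gas6, a bridging ligand of the receptor Axl, differed by 0.70 (SE 0.37). The 10 complement genes had a median of 0.28, with C1s1, a protease of the C1 complex that C1q forms, at 1.37 (SE 0.45, adjusted p = 0.375), the factor B gene Cfb at 0.32 (SE 0.15) and C2 at 0.28 (SE 0.17). C1s1 read 5.47 to 7.08 in Sca1-MALT1 and 4.22 to 5.72 in WT.

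The 19 lysosomal and antigen processing genes, the list closest in role to Ctss, had a median of 0.02 with 10 above 0. Besides Cd74, the lowest p-values were those of Ctsf, a cathepsin, at 0.66 (SE 0.24, limma adjusted p = 0.404) and Ctsw, a cathepsin of T and NK cells, at 1.41 (SE 0.53, adjusted p = 0.412). Ctsw read 11.83, 12.72, 12.32, 10.02 and 11.91 in Sca1-MALT1 replicates 1 to 5, against 10.39, 10.33 and 10.33 in WT replicates 1 to 3. Without Sca1-MALT1 replicate 4 it differed by 1.85 (SE 0.22, limma adjusted p = 0.036). It was the 1 gene of the 131 to pass there, where 24 of all 18193 genes passed. In that fit 32 of the 131 had an unadjusted p under 0.05, against 2344 of all 18193. Replicate 4 was also lowest in the mean of the T and NK cell markers, and the part of those cells in the Ctsw values was not tested. The 8 genes of lysozyme and other secreted myeloid proteins had a median of -0.17, with Grn, the progranulin gene, at -0.38 (SE 0.21) and the granule protease gene Prtn3 at 0.79 (SE 0.84).

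**Figure D4:**
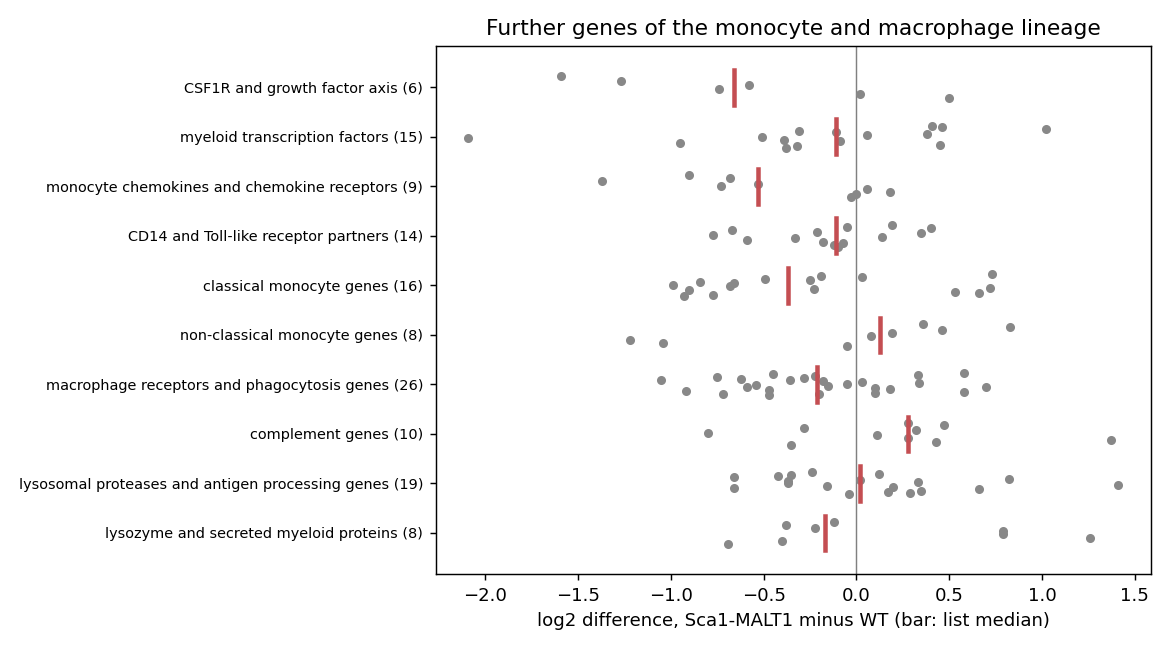
Log2 difference, Sca1-MALT1 minus WT, of each measured gene (grey points) in the 10 lists of the monocyte and macrophage lineage, with the list median as a red bar and the number of measured genes in brackets. List medians run from -0.66 (growth factor axis) to 0.28 (complement), and none of the 131 genes passed the adjusted threshold.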

How the data were processed

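RNA of sorted Sca1+Lin- bone marrow cells was hybridised to 8 1-colour Affymetrix arrays. The deposited table gives log2 values per probe set, made by the authors with RMA, a method that corrects background, quantile-normalizes and summarises probes, per the submitters' processing notes. Sources used here give neither its version nor which arrays were normalized as 1 set. Values ran from 2.73 to 15.41, as a log2 scale would. Without detection calls a low signal does not mean absence, and signals near the array medians (6.40 to 6.48) may lie near background.

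Of 45101 probe sets, 64 controls were left out. The platform annotation gave 1 symbol to 34945, several to 932, and did not list 9160. A RefSeq table (GRCm38.p6, names only) gave current symbols by Entrez identifier, and the brightest probe set by mean over 8 arrays stood for each of 18193 genes. The groups were compared with limma 3.58.1 in R 4.3.3 (lmFit, eBayes, genotype only), checked on simulated data, with Benjamini-Hochberg adjustment over all genes and a threshold of 0.05. Exact two-sided permutation tests ran over the 56 splits of the arrays. Their smallest possible p was 0.0357, reached where the groups did not overlap. The number of arrays limits precision.

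Named were the 10 genes, their fixed partner genes, the 3 lowest p-values per list, and the 3 nearest profiles of genes spanning at least 2 log2 units. Blnk, Igll1, Irf4 and Vpreb1 fall outside that rule and were chosen after their values were seen. Members and lists were chosen with earlier results of these data known. The 18 alternatives run were 2 normalizations, 2 filters on dim genes, 2 ways to treat probe sets, 2 variance models, a replicate block, a sex term from Xist (log2 signal above 9) and 8 fits each without 1 array.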

Additional observations from a re-analysis of the deposited data

Results flagged for a closer look

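In the Sca1-MALT1 group of 5 arrays, 104 sets of values were screened for a single array far from the rest, and 8 were marked. Chance marks about 1 in 20 such sets, so a few marks carry little weight. Sca1-MALT1 replicate 2 stood low for Mrc1 (5.78), for 1 of the dimmer C1qb probe sets (6.67), for C1qc (5.89) and for the mean of the non-classical monocyte genes (7.95). Sca1-MALT1 replicate 4 stood high for Itgam (8.71) and for the mean of the myeloid transcription factors (9.24). Sca1-MALT1 replicate 5 stood high for Tlr8 (5.89, below the array medians) and low for Slfn2 (9.09). That array also had the highest 3' minus 5' signal of the Gapdh (3.20) and beta-actin (2.49) controls, whose part in these values was not tested. The groups of 3 WT arrays are too small to be screened this way.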

How the results depend on the processing

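None of the 10 genes passed under any of the 18 alternatives, with adjusted p-values from 0.15 (Csf1r without Sca1-MALT1 replicate 4) upward. Their median difference stayed below 0 in all 18, from -0.81 with the replicate block, and at -0.72 to -0.27 with 1 array left out. Csf1r, Spi1, Lyz2, Mrc1, C1qa and C1qb stayed below 0 and Ctss above 0 in every fit that held them; the filter on the mean signal kept 7 of the 10. Ccr2 turned positive with the mean of its probe sets (0.26), array quality weights (0.03) and the replicate block (0.25), and ranged from -0.65 to 0.43 with 1 array left out. Cd14 turned negative with array quality weights (-0.06), the replicate block (-0.30) and the sex term (-0.16), and ranged from -0.31 to 0.30 with 1 array left out. Cx3cr1 ranged from -0.91 to 0.29. The cause was not tested. The genes called over the whole table numbered 16, against 27 with genes above the array median on at least 3 arrays (11674 tested), 27 of all 45037 probe sets, 28 with array quality weights, 29 with the sex term and 8 to 38 with 1 array left out (10, 38, 8 and 9 without Sca1-MALT1 replicates 1, 2, 3 and 5). With the replicate number as a block 0 genes passed limma's adjusted threshold and 2034 had an unadjusted p under 0.05. The numbers share no stated origin, correlations of same-numbered arrays were -0.217, -0.038 and 0.006, and 0 of 3 WT arrays correlated best with their own number, so the block was not used. Signal over background could not be judged for values near the array medians.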
